A study of Rattus norvegicus with 6 samples.

Results

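The somatostatin receptors Sstr1 to Sstr5 were followed in AR42J, a rat cell line from an exocrine tumour of the pancreas, after treatment with dexamethasone, a synthetic glucocorticoid. Every probe set on the Affymetrix Rat 230A array that the platform annotation names for one of the 5 genes was kept separately, which gave 8 of the 15866 probe sets analysed: 3 for Sstr1, 2 for Sstr2 and 1 each for Sstr3, Sstr4 and Sstr5. The dexamethasone group was 3 cultures in medium with 5% serum and 100 nM dexamethasone for 48 h, and the control group was 3 cultures in the same medium with no dexamethasone. All cultures were AR42J cells thawed at passage 29 and plated for 24 h in 20% serum, in 3 experiments spread over 5 months, and the series describes them as independent pairs of a treated and a control culture. They represent 1 tumour line at 1 dose and 1 time.

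Somatostatin receptors are G protein-coupled receptors for the peptides somatostatin and cortistatin. They act through inhibitory G proteins, which lower cyclic AMP, open inward-rectifier potassium channels and close voltage-gated calcium channels, and they also engage tyrosine phosphatases that slow cell growth. In the pancreas, somatostatin is released by delta cells of the islets and restrains both hormone and enzyme secretion. AR42J is often chosen for work on Sstr2, the receptor bound by octreotide and related peptides used to image and treat neuroendocrine tumours.

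The annotated promoters of the 3 receptor genes whose signals passed the test below are shown first, because dexamethasone acts through the glucocorticoid receptor, a transcription factor that binds DNA. Each window runs from 250 bases before to 50 bases after the RefSeq gene start in GRCr8, 5′ to 3′ on the gene's strand. Capitals mark matches to any of 4 motifs searched on both strands: the full glucocorticoid response element (AGAACA and TGTTCT with 3 bases between them), the half-site TGTTCT, the cyclic AMP response element TGACGTCA and the TATA box TATAAA.
Sstr2 (chr10:99163103-99163402, plus strand): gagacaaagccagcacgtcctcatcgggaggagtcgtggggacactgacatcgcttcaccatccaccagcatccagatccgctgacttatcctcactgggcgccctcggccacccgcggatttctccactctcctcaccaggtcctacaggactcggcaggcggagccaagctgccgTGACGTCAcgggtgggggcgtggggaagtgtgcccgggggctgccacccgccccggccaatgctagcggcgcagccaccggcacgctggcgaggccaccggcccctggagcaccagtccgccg
Sstr3 (chr7:111980201-111980500, minus strand): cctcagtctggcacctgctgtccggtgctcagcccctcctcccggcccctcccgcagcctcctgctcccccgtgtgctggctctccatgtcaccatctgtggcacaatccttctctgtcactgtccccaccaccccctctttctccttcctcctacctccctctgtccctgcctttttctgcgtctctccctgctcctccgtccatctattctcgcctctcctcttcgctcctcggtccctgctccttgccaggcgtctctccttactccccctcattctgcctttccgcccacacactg
Sstr4 (chr3:156307742-156308041, plus strand): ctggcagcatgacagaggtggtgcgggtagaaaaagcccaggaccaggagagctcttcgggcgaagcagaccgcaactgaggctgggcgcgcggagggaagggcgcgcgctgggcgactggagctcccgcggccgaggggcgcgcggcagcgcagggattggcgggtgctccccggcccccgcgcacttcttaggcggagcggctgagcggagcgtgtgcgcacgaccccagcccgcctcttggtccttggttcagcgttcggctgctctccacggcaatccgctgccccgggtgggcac

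The single match lay in the Sstr2 window, a cyclic AMP response element that began 73 bases before the annotated start. This motif was present in 612 of 33469 promoter windows of the same length (1.83%). Neither the full glucocorticoid response element (0.0149% of all windows) nor its half-site (20.7%), which is also part of the full element, nor the TATA box (14.2%) occurred in the windows of Sstr1 to Sstr5, and the cyclic AMP response element was absent from the other 4 windows. The GC content was 68.7% for Sstr2, 62.7% for Sstr3 and 71.7% for Sstr4, against 53.7% for Sstr1 and 63.7% for Sstr5. These are matches of letters in short windows at annotated starts, and no binding was measured.

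The deposited values were MAS5 signals on a linear scale, 1 per probe set and array. The trimmed mean signal of every array was 500.1, so a signal is relative to the array's total, and fewer cells with a transcript cannot be told apart from less transcript per cell. The background level of an array, taken as the highest signal of its Bacillus subtilis control probe sets, was 83.7 to 115.9 on dexamethasone arrays and 51.7 to 97.3 on control arrays. Log2 changes are dexamethasone minus control, with standard errors, 95% intervals and Benjamini-Hochberg adjusted p-values from limma, which was fitted over 9520 probe sets with the replicate number as a block. Having only 3 arrays in each group limits the precision. Of 11 acinar markers on the array, all 11 were above background on all arrays of both groups, with summed signals of 117100 to 131000 with dexamethasone and 80990 to 95960 in controls. Of these markers 7 rose, 3 did not pass and 1 was below the filter, where 15.9% of all probe sets tested rose. Prss1 (4.42) and Cela2a (1.81), named after their values were seen, rose strongly. Cpa1 (-0.22), Cela1 (0.13) and Cel (0.16) did not pass. Of 3 duct markers, Krt19 fell by 1.66 (limma adjusted p = 0.00372) and Krt7 by 0.45 (limma adjusted p = 0.0467), while Muc1 did not pass (0.09). Krt19 was lower on dexamethasone array 3 (316.2) than on dexamethasone arrays 1 and 2 (1387.8 and 1423.2). Summed duct signals were 795.3 to 2131 with dexamethasone and 2889 to 4026 in controls, and the part of these shifts in the receptor results was not tested. Of 3 islet delta cell markers, 1 was above background on all arrays of each group, with summed signals of 444.6 to 763.2 with dexamethasone and 514.6 to 636.7 in controls. Of 3 endothelial markers, Pecam1 was above background on every array and rose by 1.05 (limma adjusted p = 0.0143). Its control signals (133.9, 132.4 and 95.9) were below the signal filter of 147.6 described below. Pecam1 was thus tested because of its dexamethasone signals. Kdr was above background on 0 arrays, and summed endothelial signals were 258.9 to 427.3 with dexamethasone and 169.1 to 252.7 in controls. Of 5 immune markers, 0 were above background on all dexamethasone arrays and 2 (Lyz2 and Cd14) on all control arrays, with Ptprc, the pan-leukocyte marker, above it on 0 arrays and summed signals of 319.8 to 488.9 with dexamethasone and 306.1 to 375.4 in controls. Of 6 stromal markers, 4 were above background on all dexamethasone arrays and 5 on all control arrays. Of 8 islet endocrine markers, 2 were above background on all dexamethasone arrays and 1 on all control arrays. The part of these other markers in the receptor results was not tested either. Fkbp5, Tsc22d3 and Per1, which are standard glucocorticoid targets, rose by 2.69, 1.68 and 2.39. Per1 was above background on 2 of 3 control arrays, and without control array 2, where it was not, its change was 1.65. The control mean of Per1 (108.1) was also below the signal filter, so it was tested because of its dexamethasone signals.

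Of the 8 receptor probe sets, 6 reached the signal filter, a mean over all arrays of 147.6, and were tested. Of these, 2 fell, 2 rose and 2 did not pass an adjusted p of 0.05, whereas 37.1% of all probe sets tested were called, 15.9% higher and 21.2% lower. Both of the fallers belonged to Sstr2, and the risers were Sstr3 and Sstr4. When arrays were scaled to the hybridization controls instead, 3 receptor probe sets fell (both of Sstr2 and 1 of Sstr1) and 0 rose. That scaling put the median change over everything tested at -0.29 on the log2 scale, against -0.05 with the deposited scaling.

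Sstr2 had the largest log2 change of the 6 receptor probe sets tested. The receptor inhibits secretion and growth, and in rodent islets it restrains glucagon release. Its probe set 1368782_at had signals of 353.9, 402.3 and 423.3 in dexamethasone cultures 1 to 3, against 1494.6, 1387.0 and 1536.4 in control cultures 1 to 3. All treated arrays were lower than all control arrays, with no overlap. The mean signal was 393.2 ± 35.6 with dexamethasone and 1473 ± 77 in controls (SD, n = 3 each), a log2 change of -1.91 ± 0.14 (limma adjusted p = 1.51e-05). This corresponded to a signal 3.75-fold lower with dexamethasone, with a 95% interval of 3.02-fold to 4.66-fold. The fall ranked 162nd by size among the 2019 probe sets called lower.

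The other Sstr2 probe set, 1371174_s_at, had signals of 810.4, 926.2 and 965.0 in dexamethasone cultures 1 to 3, against 1863.7, 1228.6 and 1501.5 in control cultures 1 to 3. The groups again did not overlap, but the control cultures were spread more widely than for the first probe set. The log2 change was -0.75 ± 0.17 (limma adjusted p = 0.00778), a signal 1.68-fold lower with an interval of 1.30-fold to 2.18-fold. The suffix _s_at marks a probe set that can measure more than 1 transcript. Both calls held under all 19 alternative settings, with log2 changes of -2.15 to -1.67 for 1368782_at and -0.995 to -0.52 for 1371174_s_at.

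The 2 Sstr2 probe sets therefore moved the same way by different amounts. Per replicate pair, 1368782_at changed by -2.08, -1.79 and -1.86 on the log2 scale in pairs 1 to 3, and 1371174_s_at by -1.20, -0.41 and -0.64. The fall was larger for 1368782_at in 3 of 3 pairs, with differences of -0.88, -1.38 and -1.22. The mean difference between the changes was -1.16, and an exact two-sided permutation test over the 6 arrays gave p = 0.1, the smallest p that 3 arrays against 3 allow (adjusted p = 0.2 over the 4 comparisons of probe sets of 1 gene).

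**Figure D1:**
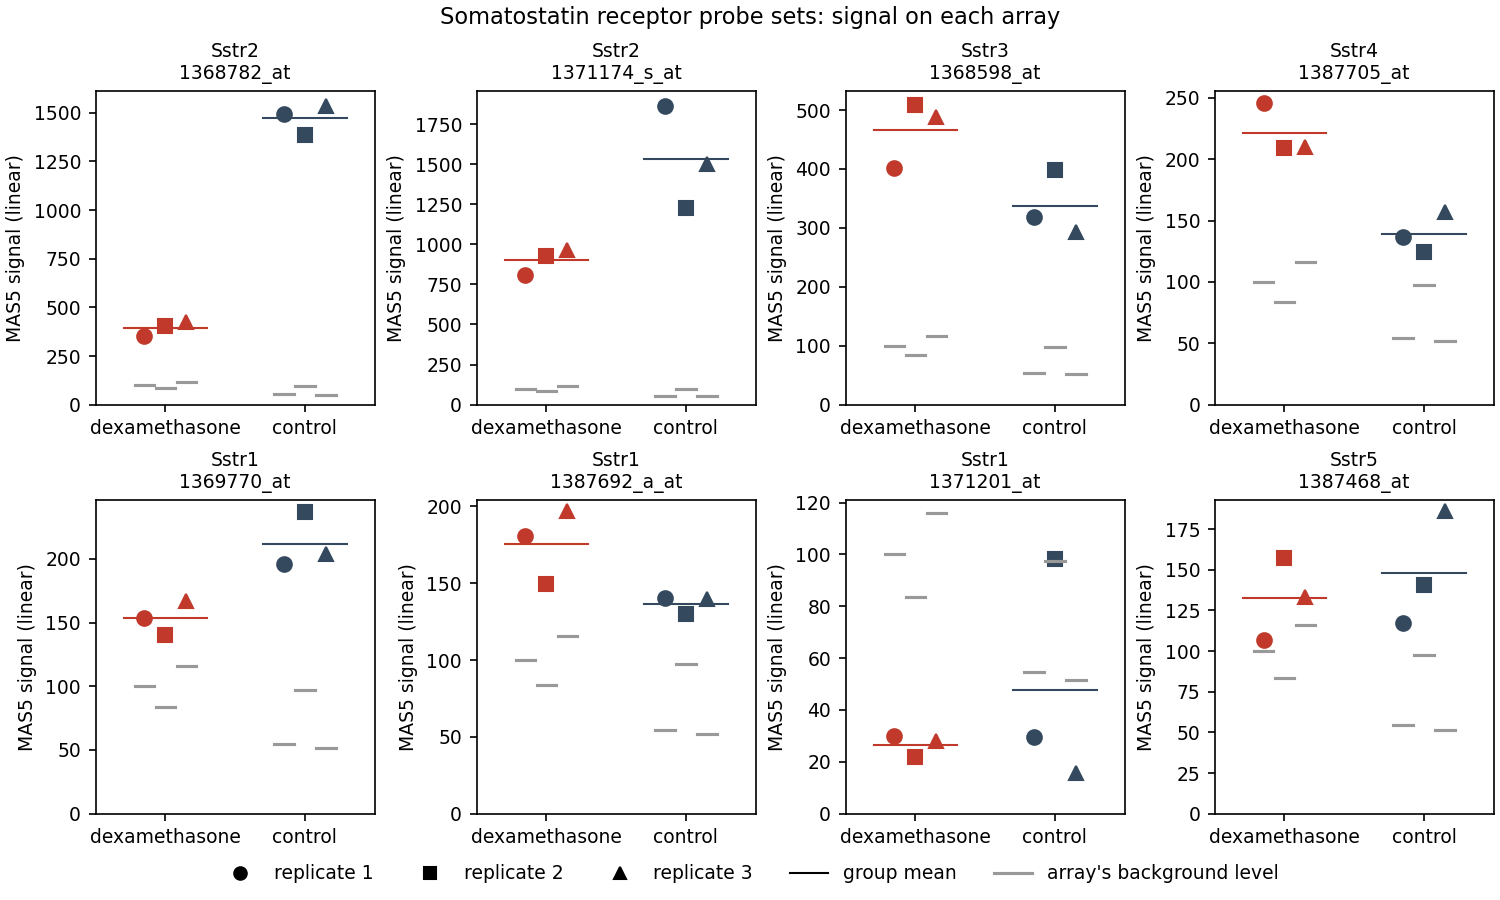
MAS5 signal (linear axis from 0) of each somatostatin receptor probe set on every dexamethasone and control array. Points are arrays, shaped by replicate, horizontal lines are group means of 3 arrays and grey dashes are each array's background level; both Sstr2 panels have all 3 treated arrays below all 3 controls, and Sstr3 and Sstr4 have them above.

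Sstr4 and Sstr3 were higher with dexamethasone. Sstr4, best known from brain and lung, had signals of 245.7, 209.0 and 209.7 in dexamethasone cultures 1 to 3, against 136.6, 124.8 and 157.0 in control cultures 1 to 3. The groups did not overlap, and every array was above its background level, although control array 2 (124.8) was close to its background of 97.3. The mean signal was 221.5 ± 21.0 with dexamethasone and 139.5 ± 16.3 in controls (SD, n = 3 each), a ratio of 1.59 with a 95% interval of 1.14 to 2.21. The log2 change of 0.67 ± 0.21 had a limma adjusted p of 0.0342. The control mean was below the filter of 147.6, so Sstr4 was tested because of its signals with dexamethasone, and with no filter its adjusted p was 0.0790. This call was kept under 11 of 18 alternative settings, and leaving out replicate pair 1 (0.58, adjusted p = 0.172) or pair 2 (0.63, adjusted p = 0.111) ended it, as did leaving out dexamethasone array 1 (adjusted p = 0.0629), control array 1 (adjusted p = 0.0655) or control array 2 (adjusted p = 0.0569).

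Sstr3, which in neurons sits in the primary cilium, had signals of 402.4, 509.0 and 487.7 in dexamethasone cultures 1 to 3, against 318.4, 397.6 and 293.0 in control cultures 1 to 3. The groups did not overlap, but the lowest treated array (402.4) lay close to the highest control array (397.6). The mean signal was 466.4 ± 56.4 with dexamethasone and 336.3 ± 54.6 in controls (SD, n = 3 each), a ratio of 1.39 with a 95% interval of 1.08 to 1.80. The log2 change was 0.48 ± 0.16 with a limma adjusted p of 0.0471, close to the threshold. It was kept under 9 of 19 alternative settings, and was lost without pair 1 (adjusted p = 0.0839), pair 2 (adjusted p = 0.0908) or pair 3 (adjusted p = 0.281), and with no replicate block (adjusted p = 0.0504). Leaving out dexamethasone array 2 or 3 or control array 1 or 3 also ended it, with changes of 0.38 to 0.44.

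Both rises depended on the scaling of the arrays. With scaling to the hybridization controls, Sstr3 changed by 0.23 (adjusted p = 0.278) and Sstr4 by 0.42 (adjusted p = 0.138), and neither passed. Relative to that median, the changes were 0.52 for Sstr3 and 0.72 for Sstr4 under both scalings, since this scaling shifts all probe sets of an array alike.

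**Figure D2:**
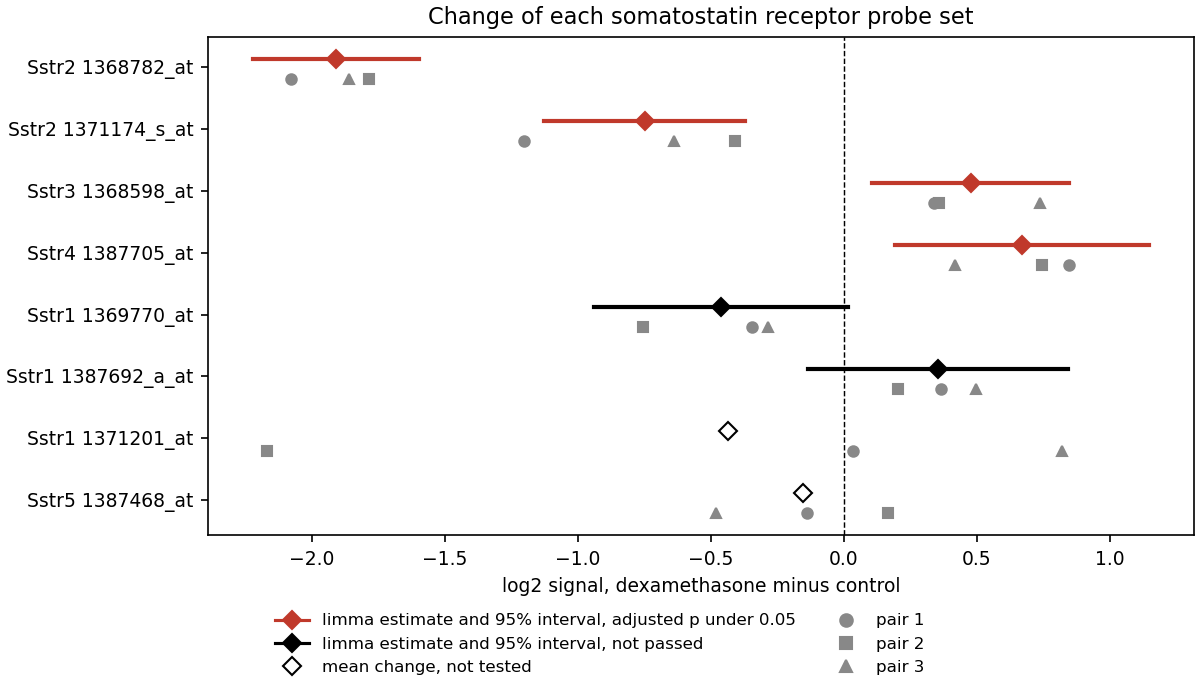
Log2 change in signal, dexamethasone minus control, of the 8 receptor probe sets. Diamonds with bars are limma estimates with 95% intervals (red where the adjusted p was under 0.05), open diamonds are untested mean changes and grey symbols are the 3 replicate pairs; the intervals of Sstr2 lie below 0, those of Sstr3 and Sstr4 above it, and those of both tested Sstr1 probe sets include it.

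The 3 probe sets of Sstr1, a receptor also found on somatostatin-releasing neurons, gave no common direction. Probe set 1369770_at had signals of 154.0, 140.2 and 167.2 in dexamethasone cultures 1 to 3, against 195.8, 236.8 and 203.5 in control cultures 1 to 3. Probe set 1387692_a_at had signals of 181.1, 149.3 and 196.8 in dexamethasone cultures 1 to 3, against 140.5, 129.7 and 139.5 in control cultures 1 to 3. The groups did not overlap in either case, and the treated arrays were the lower ones in the first and the higher ones in the second. Neither passed the test, at -0.46 ± 0.21 (95% interval -0.94 to 0.02, limma adjusted p = 0.119) for 1369770_at and 0.36 ± 0.22 (-0.13 to 0.84, limma adjusted p = 0.231) for 1387692_a_at. The control mean of 1387692_a_at was also below the filter. Scaled to the hybridization controls, 1369770_at passed and was lower (-0.71, adjusted p = 0.0209).

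The difference between the changes of these 2 Sstr1 probe sets was -0.82, and -0.71, -0.96 and -0.78 in pairs 1 to 3. An exact two-sided permutation test gave p = 0.1, again the smallest this design allows (adjusted p = 0.2). The remaining Sstr1 probe set, 1371201_at, was below the signal filter, with 30.1, 21.9 and 27.9 in dexamethasone cultures 1 to 3, against 29.4, 98.3 and 15.8 in control cultures 1 to 3. Of these arrays only control 2 was above background, and narrowly so. No level or change of Sstr1 common to its probe sets could thus be given.

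Sstr5, which in rodents restrains insulin release, was also below the filter. Its probe set had signals of 106.7, 157.5 and 133.3 in dexamethasone cultures 1 to 3, against 117.5, 140.6 and 186.0 in control cultures 1 to 3. The groups overlapped, and the pairs differed in direction (-0.14, 0.16 and -0.48 on the log2 scale). In the fit with no filter its log2 change was -0.15 ± 0.26 (95% interval -0.76 to 0.46, limma adjusted p = 0.737), where 20.9% of all 15866 probe sets were called.

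**Figure D3:**
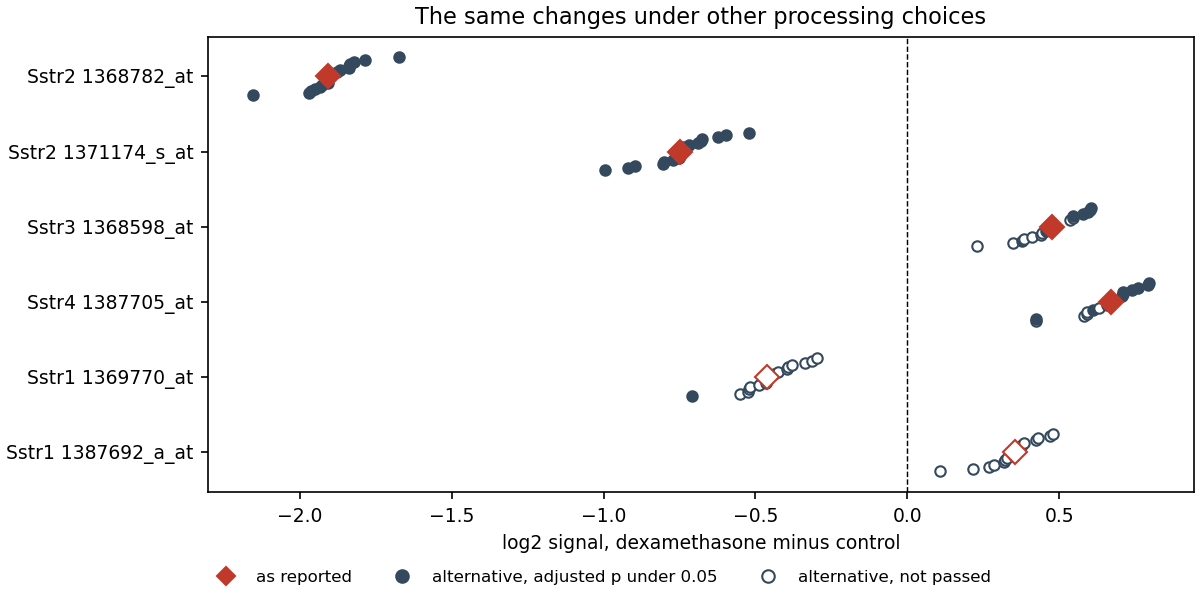
Log2 change in signal, dexamethasone minus control, of the 6 tested receptor probe sets as reported (diamonds) and under each alternative setting (circles, filled where the adjusted p was under 0.05). Each row keeps 1 sign throughout; the Sstr2 circles are all filled, while 9 of 19 are filled for Sstr3 and 11 of 18 for Sstr4.

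The 5 genes nearest to each receptor probe set over the 6 arrays were found by the Euclidean distance between log2 signals centred on each probe set's mean. Closest to Sstr2 1368782_at were Cenpw, Srsf2, Casp2, Hmgb3 and Stmn1, at distances of 0.178 to 0.288, with log2 changes of -2.04 to -1.91. Closest to Sstr2 1371174_s_at were Syt13, Ptk2, Pde3b, Ankrd28 and Isyna1, at 0.188 to 0.211. Closest to Sstr4 were Myc, Ciao1, Cgrrf1, Aamp and Opa1 (0.157 to 0.207), and closest to Sstr3 were Dusp11, Ramp1, Vps37c, Gnb1 and Dnaja3 (0.155 to 0.198). The neighbours of Sstr1 1369770_at were G3bp1, Phf12, Tspan9, Trak1 and Gse1, and those of 1387692_a_at were Stx5, Tcta, Mxd4, Akt1 and Tm4sf4. The Gnb1 and Akt1 probe sets among these neighbours had log2 changes of 0.53 and 0.30, and that of Akt1 did not pass. They are not the probe sets that stand for Gnb1 and Akt1 in the lists below, which changed by -0.84 and -1.10.

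Other genes of somatostatin signalling were read from lists with 1 probe set per gene, the one with the highest mean log2 signal. Of 131 genes listed, 112 were on the array and 52 reached the filter, and of these 10 rose, 14 fell and 28 did not pass. Over all probe sets tested, 15.9% were called higher and 21.2% lower, the background for this count and for those of the single lists below. That background also holds dimmer and unnamed probe sets, whereas the lists take the brightest probe set of each gene. With the filter at the 60th percentile, 2833 of 6347 probe sets were called. The median log2 change of the 52 list genes was -0.06, against -0.05 for all probe sets tested. Sst, the gene of the ligand, was above background on 0 treated and 1 control array, with 15.4, 77.6 and 27.4 in dexamethasone cultures, against 45.9, 20.5 and 56.7 in control cultures. Cort, the cortistatin gene, and Pcsk1, another convertase, were not analysed here.

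Of the enzymes that process prosomatostatin, Furin rose and Cpe fell. Furin, a convertase of the secretory pathway, averaged 1477 ± 31 with dexamethasone and 893.4 ± 20.4 in controls (SD, n = 3 each), a log2 change of 0.73 ± 0.12 (limma adjusted p = 0.00191). Cpe, the carboxypeptidase that trims the ends left by convertases, averaged 4618 ± 119 with dexamethasone and 7651 ± 292 in controls (-0.73 ± 0.09, limma adjusted p = 4.0e-04). Pcsk2, the convertase of dense-core granules, was below the filter, with 25.7, 6.9 and 17.9 in dexamethasone cultures 1 to 3, against 212.6, 24.6 and 261.7 in control cultures 1 to 3. It was above background in 0 treated and 2 control arrays, control 2 being the exception.

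The inhibitory alpha subunits, which the receptors activate directly, went different ways. Gnai1 had signals of 1599.7, 2015.9 and 1866.8 in dexamethasone cultures 1 to 3, against 1060.6, 962.8 and 1074.4 in control cultures 1 to 3, and rose by 0.82 ± 0.13 (limma adjusted p = 0.00174). Gnai2 had signals of 310.2, 442.2 and 300.6 in dexamethasone cultures 1 to 3, against 608.7, 598.8 and 542.1 in control cultures 1 to 3, and fell by 0.75 ± 0.16 (limma adjusted p = 0.00743). Neither pair of groups overlapped, and both calls held under all 19 alternatives. Gnao1, the alpha subunit linked to calcium channels, did not pass (-0.14 ± 0.23, 95% interval -0.65 to 0.37), and Gnaz was below the filter at 126.1 ± 25.6 with dexamethasone and 125.1 ± 15.7 in controls (SD, n = 3 each). Gnai3 shares its 2 probe sets with Gnai1 in the annotation and was given no value.

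Among 6 tested beta and gamma subunits, 1 rose and 3 fell. Gng10 fell by 1.51 ± 0.12 (limma adjusted p = 3.35e-05) to 690.2 ± 17.0 with dexamethasone, against 1964 ± 107 in controls (SD, n = 3 each). Gnb1 fell by 0.84 ± 0.11, yet of its other probe sets 1 fell by 0.65 and 1 rose by 0.53. Gnb5, the beta subunit that pairs with a group of RGS proteins, rose by 0.64 ± 0.14, but did not pass without control array 1 (0.52, adjusted p = 0.0548) or with scaling to the hybridization controls (0.39, adjusted p = 0.0586).

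Downstream of the G proteins, 12 genes of adenylyl cyclases and the cyclic AMP relay were tested, of which 1 rose and 4 fell. Prkar2b, a regulatory subunit of protein kinase A, fell by 0.68 ± 0.15, and Prkacb, a catalytic subunit, by 0.57 ± 0.14, while Prkar2a rose by 0.45 ± 0.13. The Prkar2b call was lost without pair 2 (adjusted p = 0.0619). The Prkacb call was kept under 13 of 19 alternatives, and the losses included those without pair 1 (adjusted p = 0.0519) or pair 3 (adjusted p = 0.0747). The Prkar2a call was kept under 11 of 19 alternatives and lost with scaling to the hybridization controls (0.21, adjusted p = 0.305). The other tested probe set of Prkacb (-0.17) and both of Prkar2a (0.08 and 0.45) did not pass. The list median was -0.34. Of 7 ion channel genes tested, Cacnb2, an accessory subunit of voltage-gated calcium channels, was the only one called (-0.75 ± 0.15), its other tested probe set did not pass (-0.16), and the call was kept under 15 of 19 alternatives. The potassium channel genes Kcnj3 (0.42) and Kcnj6 (0.51) did not pass, and Kcnj5 and Kcnj9 were below the filter.

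Of 6 tested genes of phosphatases and growth control, 2 rose and 2 fell. Cdkn1a, the p21 inhibitor of cyclin-dependent kinases, averaged 2269 ± 64 with dexamethasone and 1361 ± 50 in controls (SD, n = 3 each) and rose by 0.74 ± 0.12 (limma adjusted p = 0.00133), although its other probe set did not pass (0.33). Ptprj, a receptor-type tyrosine phosphatase, rose by 0.74 ± 0.24 (limma adjusted p = 0.0407), a call kept under 10 of 18 alternatives and lost without pair 2 (0.43, adjusted p = 0.198) and with scaling to the hybridization controls (0.49, adjusted p = 0.160). Src, a tyrosine kinase, had signals of 171.2, 82.8 and 127.6 in dexamethasone cultures 1 to 3, against 408.7, 464.1 and 364.7 in control cultures 1 to 3, with a log2 change of -1.75 ± 0.25 (limma adjusted p = 8.77e-04). It was above background on 2 of 3 treated arrays, and its treated mean was below the filter, so it was tested because of its control signals. Of its other tested probe sets, 1 passed (-2.31), also with a treated mean below the filter, and 1 did not (-0.44). The remaining Src probe set was below the filter. Akt1, a kinase of growth signalling, fell by 1.10 ± 0.15, with other probe sets at -0.73, which passed, and 0.30, which did not. Ptpn6, a phosphatase that binds Sstr2, was below the filter, and Ptpn11 did not pass (0.24 ± 0.12).

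Of 8 tested regulators of receptor signalling (kinases, arrestins and RGS proteins), 3 rose and 1 fell. Arrb2, which encodes the beta-arrestin that uncouples and internalises phosphorylated receptors, had signals of 192.1, 170.7 and 197.3 in dexamethasone cultures 1 to 3, against 634.9, 477.0 and 577.1 in control cultures 1 to 3. It fell by 1.58 ± 0.16 (limma adjusted p = 1.25e-04), with no overlap. Rgs2 and Rgs16 speed up the switching off of G protein alpha subunits, and whether they act on the inhibitory ones here was not tested. Rgs2 averaged 1332 ± 201 with dexamethasone and 172.4 ± 41.1 in controls (SD, n = 3 each) and rose by 2.97 ± 0.20, and Rgs16 rose by 1.36 ± 0.16. The other probe set of Rgs2 was below the filter. The receptor kinase Grk2 did not pass (-0.04 ± 0.18).

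Among 6 tested receptor scaffolds, 1 rose and 1 fell. Flna, an actin cross-linker that binds Sstr2, had signals of 126.1, 91.4 and 175.7 in dexamethasone cultures 1 to 3, against 669.8, 631.3 and 681.3 in control cultures 1 to 3, and fell by 2.38 ± 0.20 (limma adjusted p = 3.85e-05). Its treated mean of 131.1 was below the filter, so it was tested because of its control signals, and treated array 2 was close to its background of 83.7. With 100 added to every signal its change was -1.74. Nherf1, a scaffold of membrane proteins, rose by 0.62 ± 0.13, but did not pass without dexamethasone array 2 (0.53, adjusted p = 0.0530), without control array 3 (0.50, adjusted p = 0.0705) or with scaling to the hybridization controls (0.37, adjusted p = 0.0611). Of the receptors most closely related to the somatostatin receptors, the opioid, galanin and similar peptide receptors, 2 of 10 on the array reached the filter and neither passed: Oprk1 (-0.23 ± 0.23) and Galr2 (-0.14 ± 0.23).

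**Figure D4:**
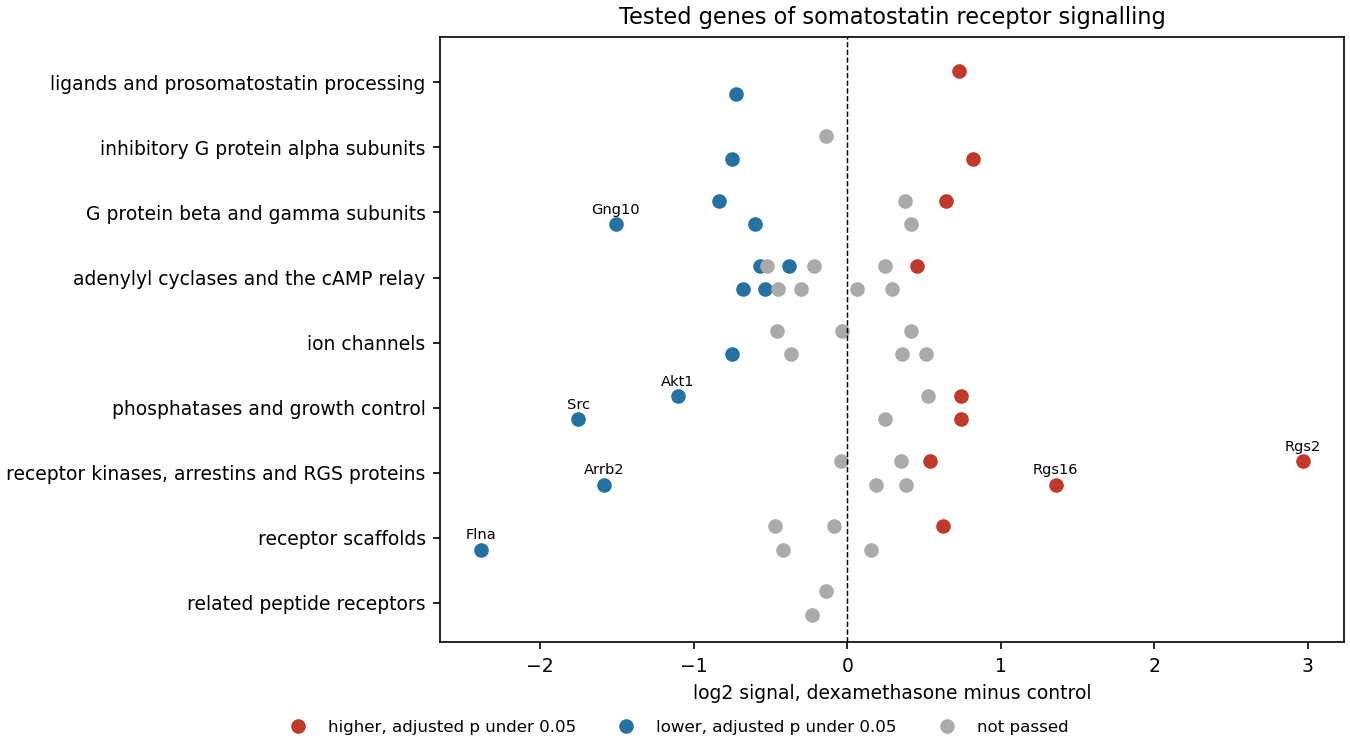
Log2 change in signal, dexamethasone minus control, of the 52 tested genes in lists of somatostatin receptor signalling, 1 probe set per gene. Red points rose, blue points fell and grey points did not pass an adjusted p of 0.05; called genes that changed by more than 1 are named, from Flna at -2.38 to Rgs2 at 2.97.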

How the data were processed

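Total RNA of 6 AR42J cultures was labelled with biotin and hybridised to 1 array each, per the labels' protocols. For each array the authors deposited an intensity per probe set, a linear MAS5 signal. The submitters' processing notes name GCOS and MAS5 as the software; its versions and scaling are not given in the sources used here. MAS5 subtracts background and mismatch signal, so low signals are noisy.

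Of 15923 probe sets, 57 array controls were left out. Names came from the GEO platform annotation, checked against the NCBI gene table for GRCr8: 12783 probe sets had 1 gene symbol, 312 had several and were not named, and 2771 were unnamed here. After 4 zeros were set to 0.1, signals were taken to log2 and not normalized again. Probe sets were tested if their mean log2 signal reached the 40th percentile (a signal of 147.6). Treatment and replicate number were fitted with limma 3.58.1 under R 4.3.3, letting the prior variance follow mean signal, with Benjamini-Hochberg adjustment over 9520 probe sets and a threshold of 0.05. The fit was tested on simulated data. The background level used 27 Bacillus subtilis control probe sets, chosen once the signals had been seen.

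The block follows the series' design text, which calls the cultures pairs. The deviations of same-numbered arrays from their group means correlated at -0.0951, 0.112 and 0.211 over probe sets in pairs 1 to 3. Arrays with different numbers correlated at -0.248 to 0.175 (the highest being dexamethasone 1 with control 2), so the values do not show the pairing for pair 1. No 2 arrays shared more than 47 identical values. The p-values measure the spread between these cultures of 1 cell line.

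Named genes were all receptor probe sets, the ligand and alpha subunit lists, the 2 largest called rises and falls of each other list, and the 5 nearest profiles of each tested receptor probe set. Further genes named with values (Kcnj3, Kcnj5, Kcnj6, Kcnj9, Ptpn6, Ptpn11, Grk2, Oprk1 and Galr2) were chosen after their values were seen. The members and lists were chosen with earlier results of these data known. Alternatives were other array scalings, a pseudocount of 16 or 100, no filter or one at the 60th percentile, no trend, no block, and leaving out pairs or single arrays. Promoters were RefSeq windows of GRCr8, and all 5 genes matched by symbol.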

Additional observations from a re-analysis of the deposited data

How the results depend on the processing

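The calls of both Sstr2 probe sets held under all 19 alternatives. Scaling to the hybridization controls ended the calls of Sstr3 (0.23, adjusted p = 0.278) and Sstr4 (0.42, adjusted p = 0.138) and brought Sstr1 1369770_at past the threshold (-0.71, adjusted p = 0.0209). With no filter, which tests 15866 probe sets, Sstr3 (0.48, adjusted p = 0.0801) and Sstr4 (0.67, adjusted p = 0.0790) did not pass. Without pairing, that is with no replicate block, Sstr3 was at 0.48 (adjusted p = 0.0504), and no other receptor call changed. Leaving out a pair, or a single array in a fit without the block, gave 0.35 to 0.60 for Sstr3, with the call lost in 7 of 9 such fits, and 0.58 to 0.80 for Sstr4, with the call lost in 5 of 9. Each fit without a pair has fewer arrays, and the cause of the other losses was not tested.

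The difference between Sstr1 1369770_at and the dim 1371201_at, -0.02 as reported, turned to 0.15 with quantile normalization and was -0.74 to 0.51 when replicates were left out. Gnao1 was -0.40 to 0.11 when replicates were left out, above 0 without replicate 1 and without control replicate 1. The number of probe sets called was 2461 to 4035 over all settings, and the share of them that was higher was 42.8% with the deposited scaling, 57.5% with centring on the 75th percentile, 51.0% with centring on the median and 19.3% with the hybridization controls. Of the 24 called genes of the signalling lists, 14 kept their call under every alternative. Among the others named, without replicate 2 the calls of Prkar2a, Prkar2b and Ptprj were lost, without replicate 3 those of Prkar2a and Prkacb, and without replicate 1 that of Prkacb. Signals near background limit what can be said of Sstr1, Sstr4 and Sstr5.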

Other observations

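Of the 60 listed signalling genes that were on the array but below the signal filter, 6 were lower with dexamethasone and 0 higher in limma's fit with no filter. In that fit 20.9% of 15866 probe sets were called, 1372 higher and 1943 lower. That share includes the brighter probe sets above the filter. The share among probe sets below the filter alone was not computed, so the count of 6 has no matched background. The 6 were Gpsm2, Grk6, Pcsk2, Jak2, Mpdz and Adcy4, named after their values were seen. Adcy4 was above background on 0 arrays of either group, so its values do not show a fall. With treated arrays set to their background level, Jak2 was at least 1.04-fold lower and Mpdz at least 1.82-fold lower. Grk6, a kinase that phosphorylates activated receptors, had signals of 16.4, 45.3 and 37.6 in dexamethasone cultures 1 to 3, against 313.4, 276.4 and 338.9 in control cultures 1 to 3. No treated array and every control array was above background, so its signal was at least 3.11-fold lower, with treated arrays set to their background level (adjusted p = 0.00124). Gpsm2, which binds inhibitory alpha subunits and also orients the mitotic spindle, had 52.0, 47.3 and 77.2 in dexamethasone cultures 1 to 3, against 307.3, 312.2 and 332.1 in control cultures 1 to 3, at least 3.20-fold lower (adjusted p = 9.2e-04). A filter on the mean of all arrays had kept these Grk6 and Gpsm2 probe sets out of the test although they were well above background in control cultures.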
